A study of Mus musculus with 2 samples.

Results

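The 60 genes described here are the parts of the Wnt signalling pathway named by role: 19 Wnt ligands, 2 proteins that let cells release them, 10 Frizzled receptors, 2 LRP co-receptors, 3 R-spondins with 2 LGR receptors and 2 ligases, 7 secreted inhibitors, and 13 intracellular proteins from Dishevelled to the TCF/LEF factors. They were chosen by symbol among the 42462 genes that could be named of 69691 features in each gene table, and all 60 were found. Total RNA was sequenced from forebrain of healthy B6NCrl mouse embryos of mixed sex at embryonic day 12.5, with 10 ng of RNA entering each library. There is 1 group of 2 biological replicates, each a single pool: 120 embryos in replicate 1 and 68 in replicate 2. The labels state no genotype beyond the strain and no treatment, so there is no contrast of conditions. Expected counts, the estimated reads per feature, summed to 33711030 and 34578499. Levels are in TPM, a share of all transcripts scaled by gene length that allows genes to be set side by side. Spike-in RNA held 9.19% of the TPM in replicate 1 and 8.25% in replicate 2. With 2 pools an exact permutation test cannot pass 0.05, so no p-value is given and differences are read against the spread of the pools.

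As background, Wnt proteins are lipid-modified secreted signals. At the surface of a receiving cell they join a Frizzled receptor to an LRP co-receptor, which recruits Dishevelled and stops a destruction complex of Axin, APC and the kinase GSK3 from marking beta-catenin for removal. Beta-catenin then enters the nucleus and activates genes together with TCF/LEF factors. In the early forebrain the cortical hem, a strip at the dorsal midline, is known as a source of several Wnt proteins, and the pathway helps to pattern the cortex and to keep its progenitors dividing.

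The forebrain label was checked against marker genes. All 6 markers of dorsal telencephalon, among them Emx1, Pax6 and Tbr1, and all 6 of ventral telencephalon, among them Dlx1, Lhx6 and Gsx2, reached 1 TPM in both pools. So did 5 of 6 markers of diencephalon (96.95 and 104 TPM in sum for the 6), with Lhx9 highest, and Irx1 (0.55 and 1.32 TPM) was the exception. None of the 6 Hox genes of hindbrain and spinal cord did, and their summed levels were 0.13 and 0.42 TPM. Of 4 midbrain markers Tal2 (2.51 and 4.36 TPM) and Pax3 (2.72 and 3.01 TPM) were detected in both pools, while En1 (0.73 and 0.98 TPM) and En2 (0 in both) were not. Markers of meninges and mesenchyme (9 of 9 detected, 721 and 875 TPM in sum), endothelium (6 of 6, 108 and 111 TPM), surface ectoderm (5 of 6, 46.3 and 41.9 TPM) and red blood cells (5 of 5, 6339 and 8618 TPM) were present as well. A level below therefore belongs to the dissected tissue as a whole, in which fewer cells of a type and less RNA per cell cannot be told apart.

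Of the 60 genes, 48 reached 1 TPM in both pools, the level called detected here, against 60.0% of 21474 protein-coding genes. Levels differed by role. The 8 effectors (Dishevelled, beta-catenin and TCF/LEF factors) had a median of 37.6 TPM, the 14 inhibitors (secreted proteins, ligases, Nkd1 and the destruction complex) 11.9 TPM, the 14 receptors 7.30 TPM, and the 24 ligand genes (with R-spondins and release proteins) 4.49 TPM. Set against the median detected protein-coding gene at 21.6 TPM, these medians were 1.74 ± 0.0657, 0.550 ± 0.0518, 0.338 ± 0.0441 and 0.208 ± 0.0292 (SD, n = 2 pools). The order was the same in either pool, but the gap of inhibitors over receptors depended on which genes were grouped together. The 7 secreted inhibitors alone had a median of 8.4 TPM, above the 14 receptors at 7.30 TPM but below the 10 Frizzled receptors at 10.01 TPM. The 2 ligases, at 4.62 TPM, were below both receptor medians. The destruction complex (30.8 TPM) and Nkd1 (24.9 TPM) were higher. Among the ligand genes, the 19 Wnt ligands alone had a median of 1.78 TPM, against 19.2 TPM for R-spondins and 33.96 TPM for release proteins. All 8 effectors were detected, as were 13 of 14 inhibitors, 12 of 14 receptors and 15 of 24 ligand genes.

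**Figure D1:**
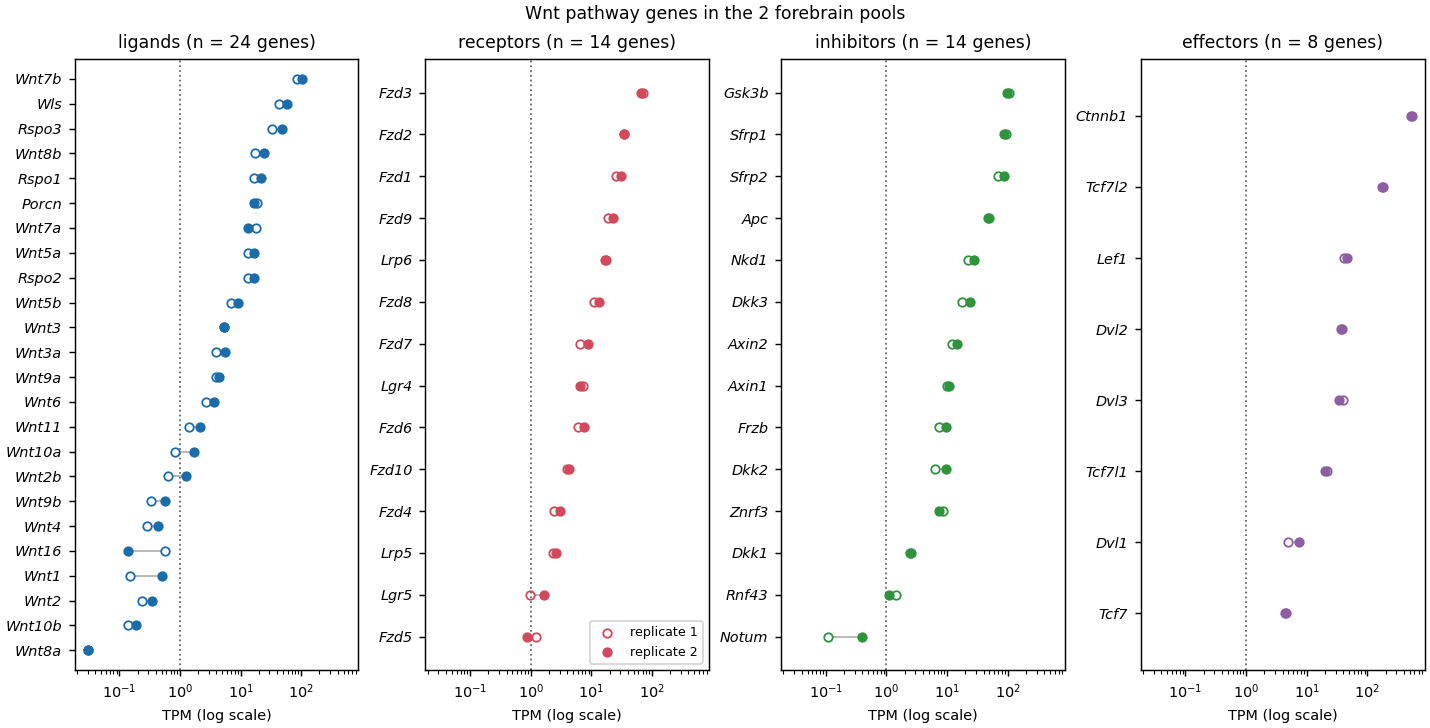
TPM on a log axis for each of the 60 genes, by role, with open circles for replicate 1, filled circles for replicate 2 and a dotted line at 1 TPM. Ctnnb1 is the highest at 539 and 526 TPM, and the genes left of the line are mostly ligands.

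Among the Wnt ligands, Wnt7b stood far above the rest. Wnt7b (chr15:85535437-85582473, minus strand, GRCm38) measured 85.6 TPM in replicate 1 and 101 in replicate 2, which was 52.9 ± 0.0769% of all Wnt ligand TPM. Its close relative Wnt7a (chr6:91363981-91411363) measured 17.8 and 13.2 TPM. Both are known for roles in the growing brain and its blood vessels. Wnt7b was higher in both pools, 6.02-fold by mean TPM, and the difference of 2.52 on the log2(TPM + 1) scale exceeded the 0.40 by which Wnt7a moved between pools.

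A second tier held 3 ligands. Wnt8b, a ligand known from the cortical hem and the adjoining hippocampal field, measured 17.6 and 24.7 TPM. Wnt7a, above, lay between 13.2 and 17.8 TPM. Wnt5a, a ligand best known for signalling without beta-catenin, measured 13.3 and 16.8 TPM. Neighbours in this order did not differ beyond the spread of the pools. Wnt8b lay above Wnt5a in both pools, but that pair was not compared by the rule. Wnt5b, the relative of Wnt5a, was lower at 7.05 and 9.02 TPM, a mean ratio of 1.88, and this difference did exceed the spread.

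Below them, Wnt3 measured 5.42 and 5.41 TPM. Wnt3a, which the cortical hem is known to secrete and which the hippocampus needs in order to form, measured 4.01 and 5.62 TPM. The order of Wnt3 and Wnt3a changed between the pools, so the pair was not separated. Wnt9a (3.99 and 4.35 TPM), Wnt6 (2.69 and 3.68 TPM) and Wnt11 (1.39 and 2.17 TPM) were the remaining detected ligands.

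The other 9 ligand genes were not detected in both pools. Wnt10a (0.82 and 1.68 TPM) and Wnt2b (0.64 and 1.28 TPM), the latter a hem ligand, passed 1 TPM only in replicate 2. Wnt1, Wnt2, Wnt4, Wnt9b, Wnt10b and Wnt16 had means of 0.165 to 0.45 TPM, which for Wnt1 came from 7 and 24 counts and for Wnt16 from 20 and 4. Wnt8a had 1 count in each library, under the floor of 3 counts used here, so no ratio to Wnt8b is given. Such low levels in whole forebrain do not show that a ligand is missing from a small domain.

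Ligand genes that lie side by side in the genome were not at like levels in every case. Wnt3 and Wnt9b are 24328 bases apart on chromosome 11, and Wnt3 at a mean of 5.42 TPM had Wnt9b at 0.45 TPM beside it. Wnt6 and Wnt10a, 6193 bases apart on chromosome 1, had means of 3.19 and 1.25 TPM. Wnt3a and Wnt9a, 16175 bases apart on chromosome 11, had means of 4.82 and 4.17 TPM. Wnt1 and Wnt10b, 11706 bases apart on chromosome 15, were both low, at 0.325 and 0.165 TPM.

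Release of Wnt proteins depends on Porcn, the enzyme that attaches their lipid, and Wls, the carrier that takes them to the cell surface. Wls measured 42.6 and 57.9 TPM and Porcn 18.8 and 16.6 TPM. Wls was higher in both pools, by 2.84-fold. Porcn RNA was of mixed kinds: protein-coding transcripts held 61.8 ± 2.81% of its TPM, a transcript annotated as a target of nonsense-mediated decay 19.9 ± 2.81%, and a retained-intron transcript 18.3% in each pool. Its protein-coding forms differ by a pair of very short exons on the minus strand of chromosome X, which are shown in capitals between the 12 transcript bases on each side, 5′ to 3′, because the leading transcript carries them one after the other. The 18-base exon is shown as it stands in a transcript that lacks the 15-base exon, so the bases after it are those that follow both.
Porcn, 18-base exon, chrX:8203026-8203043: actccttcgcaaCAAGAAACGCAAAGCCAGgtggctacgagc
Porcn, 15-base exon, chrX:8201658-8201672: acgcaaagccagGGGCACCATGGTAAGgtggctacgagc
Both lengths are multiples of 3, so either exon can be left out without shifting the reading frame. Transcripts with the 18-base exon held 59.8 ± 0.00707% of Porcn TPM and those with the 15-base exon 54.6 ± 3.61%. These are shares of all Porcn TPM, of which the protein-coding transcripts together held 61.8%. They are not rates of inclusion among the coding forms, most of whose TPM had each exon.

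Among the Frizzled receptors, which bind Wnt proteins at the cell surface, Fzd3 was the highest. Fzd3 (chr14:65192449-65262463), known for guiding axons in the forebrain, measured 69.9 and 67.2 TPM, or 36.7 ± 2.86% of all Frizzled TPM. Fzd2 followed at 34.8 TPM in both pools and Fzd1 at 25.6 and 31.1 TPM. Fzd2 lay above Fzd1 in each pool, but in replicate 2 by less than Fzd1 differed between pools, so the order of this pair is not settled. The longest run of bases they share is 47, the longest of any pair compared here.

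The middle of the Frizzled order was Fzd9 (19.0 and 22.8 TPM), Fzd8 (11.2 and 13.2 TPM), Fzd7 (6.63 and 8.97 TPM) and Fzd6 (5.95 and 7.47 TPM). Fzd10 (3.92 and 4.34 TPM) and Fzd4 (2.39 and 2.99 TPM) were lower, and Fzd5 was lowest at 1.24 and 0.86 TPM. Neighbours in this order differed beyond the spread of the pools except Fzd2 from Fzd1 and Fzd7 from Fzd6. Between other pairs of related Frizzled genes the gap was wider, in both pools: Fzd8 was 11.6-fold over Fzd5, Fzd3 was 10.2-fold over Fzd6, Fzd9 was 5.07-fold over Fzd10, and Fzd2 was 4.46-fold over Fzd7.

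The co-receptors Lrp6 and Lrp5, which pass the signal on together with a Frizzled, were unequal as well. Lrp6 measured 17.3 and 16.9 TPM and Lrp5 2.35 and 2.66 TPM, a 6.82-fold difference. This was beyond the spread, which was no more than 0.13 on the log2(TPM + 1) scale for either gene.

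R-spondins strengthen the response to Wnt by keeping the ligases Znrf3 and Rnf43 from removing Frizzled receptors, and LGR proteins are their receptors. Rspo3 (chr10:29452416-29535867) measured 33.2 and 48.9 TPM, Rspo1 16.7 and 21.6 TPM, and Rspo2 13.5 and 16.4 TPM. Rspo3 exceeded Rspo1 by 2.14-fold and Rspo2 by 2.75-fold in mean TPM, beyond the spread of the pools. The 3 genes summed to 63.4 and 86.9 TPM. Lgr4 measured 7.16 and 6.44 TPM and Lgr5, known as a marker of stem cells in adult gut, 0.96 and 1.65 TPM, so that Lgr4 was 5.21-fold higher. Among the ligases Znrf3 (8.43 and 7.47 TPM) was 6.19-fold over Rnf43 (1.46 and 1.11 TPM).

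Secreted inhibitors were led by a pair that bind Wnt proteins outside the cell. Sfrp1 (chr8:23411502-23449632) measured 94.9 and 88.4 TPM and Sfrp2 (chr3:83766321-83774316) 69.3 and 86.8 TPM. These are levels in the range of Wnt7b. Sfrp1 and Sfrp2 did not differ beyond the spread, since they were nearly level in replicate 2. The related Frzb was 10.9-fold below Sfrp1, at 7.24 and 9.56 TPM.

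The Dickkopf genes were less abundant. Dkk3, a member of the family that is not a standard LRP antagonist, measured 17.7 and 23.7 TPM. Dkk2 measured 6.25 and 9.76 TPM and Dkk1, the classical LRP antagonist needed for head formation, 2.43 and 2.56 TPM. Dkk3 was 8.28-fold over Dkk1 and 2.58-fold over Dkk2. Notum, an enzyme that strips the lipid from Wnt proteins, was near the floor at 0.11 and 0.40 TPM, from 4 and 15.9 expected counts.

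**Figure D2:**
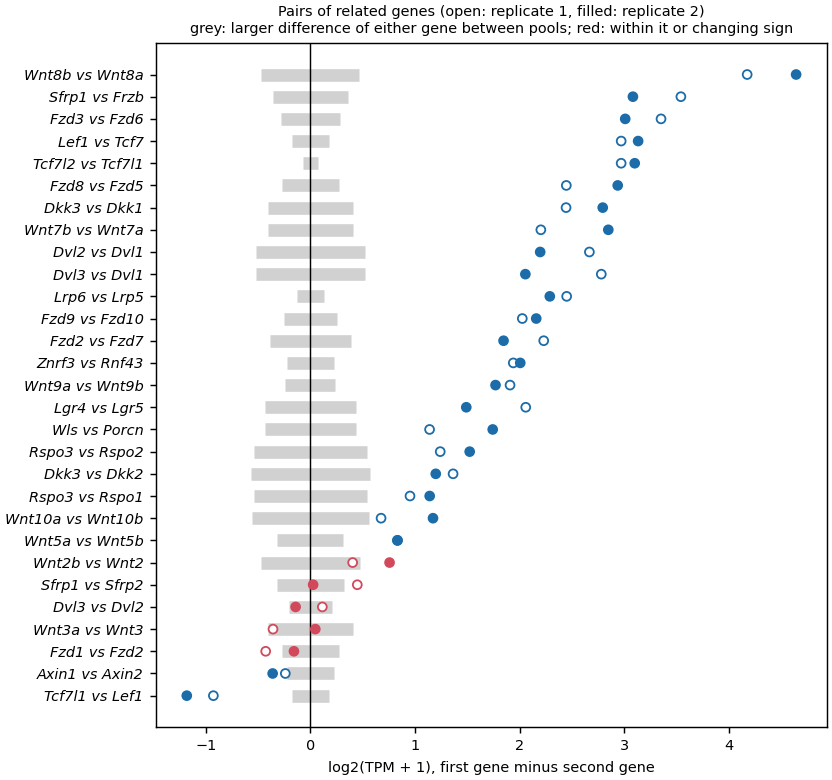
Difference of log2(TPM + 1) between the members of each of 29 pairs of related genes, in replicate 1 (open) and replicate 2 (filled), with a grey bar as wide on each side of 0 as the larger pool difference of either gene. In 24 pairs both points lie beyond the bar on the same side (blue), and in 5 they do not (red).

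Of the 29 pairs of related genes compared, 24 differed in both pools in 1 direction by more than the pools did. The 5 that did not were Wnt2b and Wnt2, Wnt3a and Wnt3, Fzd1 and Fzd2, Sfrp1 and Sfrp2, and Dvl3 and Dvl2. Arbitrary pairs drawn from all genes were not put through this rule. The count therefore does not show that related genes of the pathway are more unequal than other genes. The mildest difference among the 24 was Axin2 over Axin1, at 1.26-fold. It was within the spread when posterior mean TPM (-0.26 for Axin1 minus Axin2 on the log2 scale) or FPKM (-0.29) replaced TPM.

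Inside the cell, Dishevelled proteins carry the signal from the receptor. Dvl2 measured 37.1 and 38.4 TPM and Dvl3 40.2 and 34.7 TPM, with the order changing between the pools. Dvl1 was 5.99-fold below Dvl2, at 5.0 and 7.59 TPM. Most of its TPM was assigned to transcripts annotated as retaining an intron, with 86.6% in replicate 1 and 62.8% in replicate 2. The protein-coding share was 13.4% and 37.2%, so this split varied between the pools. Dvl2 overlaps Acadvl on the opposite strand (39.7 and 35.8 TPM). No strand setting is stated for the counting, so reads from the shared stretch cannot be told apart. Nkd1, an inhibitor that binds Dishevelled and that Wnt signalling itself switches on, measured 21.9 and 27.9 TPM.

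The destruction complex was uneven in its RNA. Gsk3b, its kinase, measured 106 and 95.8 TPM and the scaffold Apc 50 and 46.7 TPM. The Axins had the lowest RNA, with Axin1 at 10.1 and 10.95 TPM and Axin2, a widely used target gene of the pathway, at 12.1 and 14.4 TPM. Axin is known as the scarce part of the complex as a protein, which RNA levels do not measure. Axin1 transcripts with a 108-base exon (chr17:26192516-26192623) held 64.2 ± 7.30% of its TPM. This is a share of all Axin1 TPM, of which a retained-intron transcript held 23.0% and 10.7%, and not a rate of inclusion.

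Ctnnb1, which encodes beta-catenin (chr9:120929216-120960507), was the most abundant of the 60 genes at 539 and 526 TPM. It also serves in cell adhesion, and RNA level says nothing of how much protein is stabilised. Its leading and next transcripts, both protein-coding, held 54.9 ± 1.24% and 39.3 ± 1.88% of its TPM. Ulk4, which overlaps it on the other strand, measured 5.84 and 6.23 TPM.

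The TCF/LEF factors bind DNA and switch genes on with beta-catenin or off without it. Tcf7l2 (chr19:55741820-55933654) measured 174 and 180 TPM, or 71.8 ± 0.393% of the TPM of the 4 factors. Lef1 measured 41.4 and 47.0 TPM, Tcf7l1, which acts mostly as a repressor, 21.3 and 20.2 TPM, and Tcf7 4.41 and 4.48 TPM. Each differed from the next in this order beyond the spread of the pools. Tcf7l2 was 8.54-fold over Tcf7l1 and Lef1 was 9.94-fold over Tcf7.

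Tcf7l2 had 22 transcripts in the tables, and the leading one held 44.1% and 50.2% of its TPM. The start of the protein is the stretch that binds beta-catenin, and forms without it are known to act against the pathway. The coding bases of the first coding exon (chr19:55742332-55742530 for the 199-base exon, of which 189 bases are coding) are shown in capitals, followed by 12 bases of the next exon, because this stretch separates the forms.
Tcf7l2, first coding exon: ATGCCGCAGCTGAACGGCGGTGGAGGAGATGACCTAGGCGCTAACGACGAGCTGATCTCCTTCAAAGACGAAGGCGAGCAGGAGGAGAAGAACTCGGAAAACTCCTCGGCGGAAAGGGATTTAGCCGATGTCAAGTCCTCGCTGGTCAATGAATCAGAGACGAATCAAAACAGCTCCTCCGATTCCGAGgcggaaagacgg
Transcripts holding these bases, 15 of the 22, made up 76.6% of Tcf7l2 TPM in replicate 1 and 77.1% in replicate 2. Most Tcf7l2 RNA in both pools thus included the coding bases for this stretch. These are shares of all Tcf7l2 TPM, of which retained-intron transcripts held 19.5% and 15.25%. Short transcripts are counted too, such as one of 729 bases with 10.0% in each pool. Among transcripts without these bases, a protein-coding one of 2839 bases held 7.36% and 9.23%. The remainder is therefore not a measure of forms that act against the pathway.

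Lef1 transcripts fell mainly into 2 forms with different ends. The leading form held 53.3% and 52.6% of Lef1 TPM and the next 39.4% and 35.8%. The latter has an extra exon near its end that the leading form lacks, and a rarer transcript has an internal exon known for regulated inclusion in T cells. The coding bases of both are shown in capitals, with the adjoining transcript bases in lower case, because the first was common and the second rare.
Lef1, 41-base exon with 32 coding bases, chr3:131204933-131204973: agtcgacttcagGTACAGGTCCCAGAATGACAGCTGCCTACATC
Lef1, 84-base exon, chr3:131191023-131191106: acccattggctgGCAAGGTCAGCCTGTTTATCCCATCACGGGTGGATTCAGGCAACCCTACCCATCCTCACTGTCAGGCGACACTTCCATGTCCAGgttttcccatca
Transcripts with the 41-base exon held 39.6 ± 0.771% of Lef1 TPM, and those with the 84-base exon 2.03 ± 1.84%. The 84 bases are a multiple of 3.

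Transcript shares were examined for the 38 genes at a mean of 5 TPM or more. In 25 of them 1 transcript held 75% or more in both pools, and 13 of those 25 have a single transcript in the tables. In the other 13 the leading transcript held less in at least 1 pool, and in 4 of them, Dvl1, Dvl3, Wnt5a and Wnt5b, the leader changed between pools. The change was widest for Wnt5b, where a 2371-base transcript held 62.1% in replicate 1 and 0% in replicate 2 while a 2339-base transcript held 37.3% and 80.8%. Wnt5b had 321 and 416 expected counts, and how well reads tell these transcripts apart was not tested. Wnt5a was shared by transcripts of 3650 bases (43.8% and 37.2%) and 7009 bases (44.3% and 35.6%), and Lgr4 transcripts with a 72-base exon (chr2:109970692-109970763) held 65.8 ± 7.38% of its TPM.

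**Figure D3:**
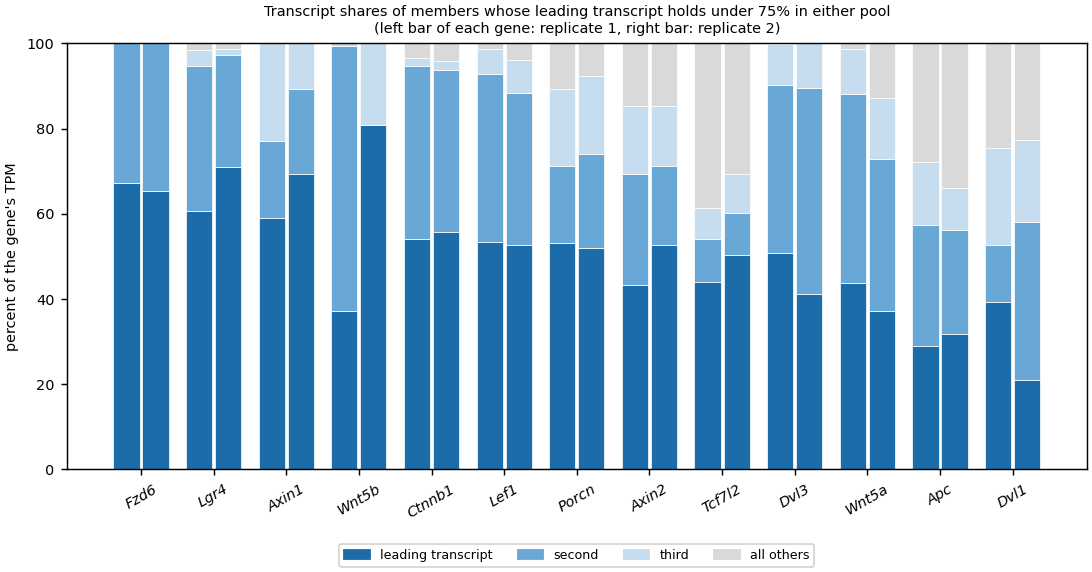
Percent of the gene's TPM held by its leading transcript, the next 2 and all others, for the 13 genes whose leader held under 75% in a pool, with replicate 1 on the left and replicate 2 on the right of each pair of bars. Ctnnb1, Lef1 and Porcn are alike in both pools, while Wnt5b and Dvl1 are not.

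A further 86 genes of the pathway that are not among the 60 were measured by role, and 80 were detected in both pools. All 12 genes of planar cell polarity were, with Vangl2 (50 and 51.7 TPM), Celsr2 (50.6 and 50.1 TPM) and Fuz (23.95 and 22.8 TPM) highest. So were all 20 genes of kinases and protein turnover, led by the casein kinases Csnk1a1 (263 and 276 TPM), Csnk1e (197 and 215 TPM) and Csnk1d (136 and 124 TPM). All 16 nuclear partners were detected, led by Cby1 (75.4 and 74.0 TPM), Hbp1 (73.0 and 70.4 TPM) and Ctnnbip1 (68.0 and 67.7 TPM). These last 3 are known to restrain beta-catenin or the TCF/LEF factors.

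All 14 genes listed as known targets were detected, led by the cyclin Ccnd2 (279 and 276 TPM), Ccnd1 (206 and 172 TPM) and Id2 (130.4 and 130.1 TPM). These genes have other regulators too. Among 15 other surface receptors and binding proteins 13 were detected, led by Gpc3 (75.6 and 96.1 TPM), Gpc4 (60.9 and 49.8 TPM) and Ptk7 (45.7 and 44.8 TPM), and Lgr6 and Rspo4 were not. Of 9 other secreted inhibitors 5 were detected, with Igfbp4 (175.6 and 201.6 TPM) highest, Tfpi (7.43 and 7.82 TPM) and Wif1 (5.85 and 7.56 TPM) next, and Sfrp5, Dkk4, Dkkl1 and Sost under 1 TPM in both pools.

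The promoters of 40 of the 60 genes, 50 windows of 300 bases from 250 before to 50 after the RefSeq start (GRCm38.p6), were searched for the TCF/LEF core motif, CTTTGAT or CTTTGAA on either strand. It was in 3 windows (6%), against 7.46% of 19931 windows of protein-coding genes and 8.65% of all 32851 windows. The windows were those of Wnt5b, Wnt11 and Dkk1. That of Wnt11, which has 3 M21 transcripts starting within 50 bases of the RefSeq start, is shown as an example, with the motif in capitals as read on the plus strand and 20 bases on each side.
Wnt11, chr7:98835041-98835087, plus strand: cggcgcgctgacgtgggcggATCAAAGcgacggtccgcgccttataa
The share among these genes was no higher than among promoters in general. The median GC content was 67% in the members' windows, 57% in those of protein-coding genes and 52.7% in all.

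The pools were then compared gene by gene, since replicates of 1 tissue show how far each level can be relied on. Among 51 of the 60 genes at a mean of 1 TPM or more, none differed by more than 1.5-fold on the log2(TPM + 1) scale, while 1.27% of 13092 protein-coding genes at that level were past 1.5-fold towards replicate 2 and 0.535% towards replicate 1. The ratios ran from -0.40 for Wnt7a to 0.57 for Dkk2 (log2, replicate 2 minus replicate 1). With a pseudocount of 0.1, 5 of the 51 genes (9.80%) passed 1.5-fold towards replicate 2, against 2.64% of all protein-coding genes at that level, and none did towards replicate 1, against 1.13%. The 5 were Wnt10a, Wnt11, Dkk2, Lgr5 and Dvl1.

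Most of the small differences were towards replicate 2. The median log2 ratio was 0.22 over the 51 genes and 0.01 over all 13092. Of the 51 genes 36 (70.6%) were higher in replicate 2, against 51.6% of all. The deposited interval around each level, which covers counting and read assignment error only, lay wholly above that of replicate 1 in 20 of 51 genes (39.2%), against 7.25% of all protein-coding genes at that level. It lay wholly below in 4 (7.84%), against 7.94% of all.

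The 20 genes higher in replicate 2 by their intervals were the ligands Wnt3a, Wnt5b, Wnt7b and Wnt8b, the carrier Wls, all 3 R-spondins, the receptors Fzd1, Fzd6, Fzd7, Fzd8 and Fzd9, the secreted inhibitors Sfrp2, Frzb, Dkk2 and Dkk3, and Nkd1, Dvl1 and Lef1. For Rspo3 the interval was 30.7 to 33.9 TPM in the first pool and 45.7 to 49.5 TPM in the other. The 4 genes higher in replicate 1 were Wnt7a, Sfrp1, Dvl3 and Gsk3b, with Wnt7a at 16.04 to 20.9 TPM in replicate 1 and 12.5 to 15.8 TPM in replicate 2. By role the median ratio was 0.33 for ligand genes, 0.18 for receptors, 0.11 for inhibitors and 0.03 for effectors.

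**Figure D4:**
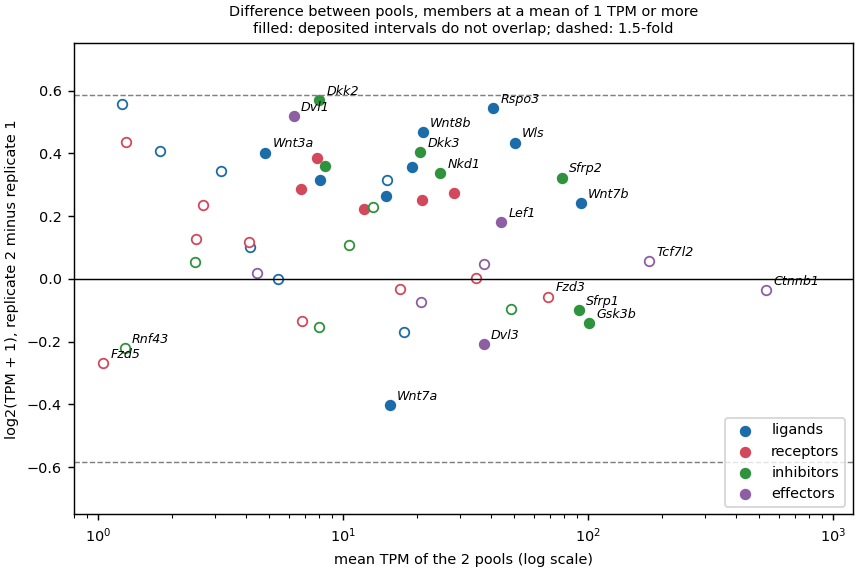
Difference between the pools in log2(TPM + 1) against mean TPM on a log axis for the 51 genes at a mean of 1 TPM or more, coloured by role and filled where the deposited intervals do not overlap. All points lie within 1.5-fold (dashed lines), and the filled ones are mostly above 0.

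Markers of the tissue's parts also differed between the pools. Those of cortical hem, roof plate and choroid plexus had summed levels of 149 and 225 TPM. Of these 8 markers 6 were higher in replicate 2, or 5 of the 7 at a mean of 1 TPM or more. Msx1 (33.1 and 56.0 TPM) and Ttr (42.9 and 84.4 TPM) were among them, while Lmx1a (6.32 and 5.80 TPM) and Otx2 (46.8 and 45.1 TPM) were not. All 9 markers of meninges and mesenchyme were higher in replicate 2, with Col1a1 at 171 and 220 TPM. The 6 markers of ventral telencephalon were all lower in replicate 2, and summed to 548 and 361 TPM. Those of dorsal telencephalon summed to 390 and 409 TPM and of endothelium to 108 and 111 TPM. All 5 markers of microglia and macrophages and all 5 of red blood cells were higher in replicate 2. Of 5 newborn neuron markers 4 were lower. The part of these differences in the Wnt pathway result was not tested.

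**Figure D5:**
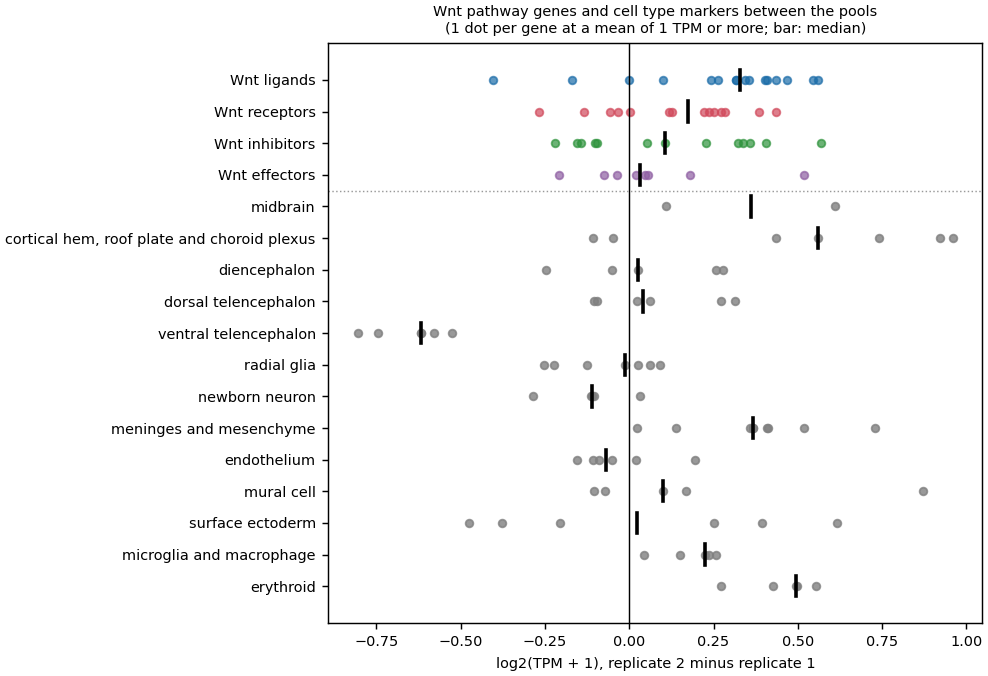
Log2(TPM + 1) in replicate 2 minus replicate 1 for the Wnt pathway genes by role and for marker genes of cell types, 1 dot per gene at a mean of 1 TPM or more, with a bar at the median. Meninges, erythroid, microglia and midbrain markers all lie to the right of 0, as most hem markers and ligands do. All 6 ventral telencephalon markers and 4 of 5 newborn neuron markers lie to the left.

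Of the 86 other pathway genes 80 had a mean of 1 TPM or more, and their median ratio was -0.00, with 40 of 80 above 0. The interval of replicate 2 lay wholly above in 16 of the 80 (20.0%), against 7.25% of all protein-coding genes at that level, and wholly below in 9 (11.2%), against 7.94%. Among those at 1 TPM or more, replicate 2 was higher in 4 of 5 other secreted inhibitors, 10 of 13 surface receptors and binding proteins, 9 of 12 planar polarity genes and 8 of 14 known targets. It was higher in 6 of 20 kinase and turnover genes and in 3 of 16 nuclear partners. None of the 86 passed 1.5-fold.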

How the data were processed

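Gene and transcript tables of 2 total RNA-seq libraries were used. The authors' tables were made from transcriptome alignments of each replicate on mm10 with GENCODE M4, per the text deposited with them, and which aligner and quantifier were run is not given in these sources. The authors deposited expected counts, TPM (spike-ins included), posterior mean TPM with an interval of unstated level, FPKM, and the percent of a gene's TPM held by each of its transcripts. Their effective length is the length minus 99 bases. The series is marked as superseded by a later deposit, not used here.

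Symbols, gene positions and exon sequences came from GENCODE M21 on GRCm38. Of 150 transcripts of the genes at 5 TPM or more, 124 have the same length in M21. The members and lists were chosen with earlier results of these data known. Levels were compared as log2(TPM + 1), and such folds understate change in low genes. A pair differed where the same member led in each pool and the gap exceeded the larger pool difference of either. By rule the text names members averaging at least 5 TPM or in described pairs, and of each other pathway list the 3 highest and those under 1 TPM. The remaining members, and the markers named, were named after their values were seen. TPM precision is limited by the 2 pools and by counting, and the floor was 3 counts. The tables record no molecular identifiers, so intervals and floors cover counting error only. Scaling alternatives used rounded expected counts with edgeR 4.0.16 and DESeq2 1.42.0. Other steps used Python 3.11.15, pandas 2.3.3, numpy 2.4.6, matplotlib 3.10.9 and R 4.3.3. The rule for pool differences was tried on simulated counts with planted changes and counting error alone. Variation between dissected pools was not simulated. The general telencephalon marker list is not reported here.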

Additional observations from a re-analysis of the deposited data

How the results depend on the processing

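No member passed 1.5-fold between pools with TMM or DESeq2 scaling, without a filter on low values, or with posterior mean TPM, while 5 of 51 did with a pseudocount of 0.1, all towards replicate 2, against 2.64% of protein-coding genes in that direction. Members detected numbered 46 to 52 of 60 over thresholds of 0.5 and 2 TPM, posterior mean TPM, FPKM and each pool alone (49 without replicate 2, 51 without replicate 1). Pairs beyond the spread numbered 25 with the pseudocount of 0.1, which added Wnt2b over Wnt2, and 23 with posterior mean TPM or FPKM, which lost Axin2 over Axin1. The median ratio of ligand genes to the median detected gene was 0.185 without replicate 2 and 0.226 without replicate 1. No paired analysis was possible because there is 1 group. The levels of ligands under 1 TPM rest on at most 93 counts a library.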
